A study of Mus musculus with 8 samples.

Results

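The 7 genes described here encode the S100 alarmins S100a8 and S100a9, the stefins Stfa1, Stfa2l1, Cstdc4 and Cstdc5, and the aspartic protease Asprv1, all typical products of mouse neutrophils. They were chosen by name among the 32285 genes of the count matrices, and all 7 were found. Their unique molecular identifiers (UMIs, each of which stands for 1 captured RNA molecule) were counted in barcodes whose detected genes numbered above 500 and below 8000 and whose mitochondrial UMIs stayed under 20%, then compared between cell classes, neutrophil maturation stages and diets.

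S100a8 and S100a9 bind calcium and zinc and pair to form calprotectin, a major protein of the neutrophil cytosol, which starves microbes of metal ions and, once released, acts on Toll-like receptor 4. Stefins are small cytosolic inhibitors of cysteine cathepsins, and in the mouse the stefin A genes have multiplied into a cluster of near copies. Asprv1 is a retroviral-like aspartic protease, best known from the epidermis. Neutrophils mature in bone marrow from cycling precursors through a stage that makes specific granules (lactoferrin, cathelicidin, lipocalin 2) to mature cells that carry Cxcr2 and Il1b RNA.

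The genes lie in 3 places of the mouse genome (GRCm38, GENCODE M21). S100a8 (ENSMUSG00000056054, chr3:90668978-90670035, plus strand) and S100a9 (ENSMUSG00000056071, chr3:90692632-90695721, minus strand) are 22596 bases apart, each with 3 exons. Asprv1 (ENSMUSG00000033508, chr6:86628164-86629710, plus strand) has 1 exon. The stefins share a cluster of 10 genes on chromosome 16 between 36119946 and 36455392, in which Stfa2l1 (ENSMUSG00000059657, chr16:36156811-36161953), Cstdc4 (ENSMUSG00000079597, chr16:36184212-36188111) and Stfa1 (ENSMUSG00000071562, chr16:36276951-36285373) lie on the plus strand and Cstdc5 (ENSMUSG00000071561, chr16:36359382-36367748) on the minus strand, each with 3 exons.

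The coding sequences of the 4 stefins are shown because their likeness bears on how far their UMIs can be told apart. Capitals mark bases that differ from Cstdc5 in a pairwise alignment, and of the 312 bases of Stfa2l1 the first 300 are printed.
Cstdc5: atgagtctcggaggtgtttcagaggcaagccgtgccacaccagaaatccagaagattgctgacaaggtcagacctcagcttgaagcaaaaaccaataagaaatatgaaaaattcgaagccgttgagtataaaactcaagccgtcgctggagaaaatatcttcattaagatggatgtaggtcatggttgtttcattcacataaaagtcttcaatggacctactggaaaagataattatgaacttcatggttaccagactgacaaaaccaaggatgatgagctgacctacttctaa
Stfa1: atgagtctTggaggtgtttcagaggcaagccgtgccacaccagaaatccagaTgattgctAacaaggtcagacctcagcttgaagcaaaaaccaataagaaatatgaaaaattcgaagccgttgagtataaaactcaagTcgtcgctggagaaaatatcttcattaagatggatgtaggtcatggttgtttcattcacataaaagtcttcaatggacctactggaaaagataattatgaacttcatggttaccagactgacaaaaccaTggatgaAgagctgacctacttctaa
Cstdc4: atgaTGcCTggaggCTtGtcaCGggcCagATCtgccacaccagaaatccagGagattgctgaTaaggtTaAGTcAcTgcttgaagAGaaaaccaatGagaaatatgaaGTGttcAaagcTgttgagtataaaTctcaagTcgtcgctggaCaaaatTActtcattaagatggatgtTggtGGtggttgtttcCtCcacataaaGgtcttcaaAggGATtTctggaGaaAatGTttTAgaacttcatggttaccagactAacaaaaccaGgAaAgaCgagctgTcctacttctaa
Stfa2l1: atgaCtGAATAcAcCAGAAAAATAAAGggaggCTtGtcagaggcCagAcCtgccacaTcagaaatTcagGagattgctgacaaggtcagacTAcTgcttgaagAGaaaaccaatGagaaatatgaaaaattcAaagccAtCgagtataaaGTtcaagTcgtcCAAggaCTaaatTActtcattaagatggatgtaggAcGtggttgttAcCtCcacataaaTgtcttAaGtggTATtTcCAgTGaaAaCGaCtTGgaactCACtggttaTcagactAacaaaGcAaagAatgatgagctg
Stfa1 differed from Cstdc5 by 6 substitutions over 294 bases, and the last 150 bases of their transcripts, close to where a 3′ assay reads, were 98% identical. Of the 50-base stretches of the Stfa1 transcript, 26.9% occurred in another gene of the cluster, and 33.5% of those of Cstdc5 did. UMIs of Stfa1 and Cstdc5 could therefore have been split or lost between them, and their values are uncertain. Cstdc4 differed from Cstdc5 by 57 substitutions and Stfa2l1 by 60 substitutions and 18 gap positions. Some stretches of these transcripts also recur, 26.3% of those of Cstdc4 in Csta2 and 16.8% of those of Stfa2l1 in Stfa2.

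Periosteal cells came from the left femurs and tibias of male C57BL/6J mice aged 16 weeks, fed normal diet chow (ND) or a high-fat diet (HFD), the latter used by the study as a model of type 2 diabetes. The labels list 4 ND and 4 HFD samples, but the deposited counts are 1 matrix per diet in which no barcode is tied to a mouse, so that each diet was 1 pooled library. No test between diets was possible, and the 95% intervals given cover counting error only, not differences between mice. Those of levels and ratios treat each UMI as independent. They are therefore too narrow for genes whose UMIs lay in few cells. After filtering, 6029 cells of the ND library and 6224 of the HFD library remained, with a median depth of 4610 and 4823.5 UMIs, and 14 barcodes occurred among the kept cells of both libraries.

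Cells were clustered without the 7 genes and without the other genes named Stfa or Cstdc, and clusters were named by markers that are not among them. Of 29 clusters, 6 were neutrophil-like, each with 6 to 11 of 11 neutrophil markers (among them Ly6g, Csf3r, Mmp8, Mmp9, Ltf, Camp and Ngp) detected. They held 2396 ND and 2416 HFD cells, 39.7% and 38.8% of the kept cells, although the tissue is labelled periosteum. B cell-like cells made up 25.2% and 23.7%, and mesenchymal-like cells 6.80% and 10.9%. One neutrophil-like cluster held 218 ND and 20 HFD cells and stands apart for that reason.

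The 7 genes were concentrated in neutrophil-like cells, where they took up 28.6% of all UMIs in the ND library and 30.4% in the HFD library. S100a9 and S100a8 ranked 1 and 2 among all genes in these cells. S100a9 stood at 156915 UMIs per 1000000 in ND and 163393 in HFD, and S100a8 at 127244 and 138911. The other 5 genes were far lower, at 692 and 590 for Cstdc4, 654 and 616 for Stfa2l1, 229 and 211 for Asprv1, 129 and 166 for Stfa1, and 91.1 and 89.6 for Cstdc5. These are UMIs counted near the 3′ end, not divided by transcript length.

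Neutrophil-like cells held between 84.9% (Cstdc5 in ND) and 96.2% (Asprv1 in HFD) of the UMIs of each gene in the kept cells, with 87.5% and 91.8% for S100a8. In both libraries, 6 of the 7 genes were higher per 1000000 UMIs in neutrophil-like cells than in each of the other 11 named classes, against 4.2% of 15895 genes with at least 20 UMIs. The exception was Cstdc5 in the ND library, which reached 143 UMIs per 1000000 in endothelial-like cells. All 85 Cstdc5 UMIs behind that value lay in 1 of 118 endothelial-like cells, and none was found in the 234 endothelial-like cells of the HFD library.

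**Figure D1:**
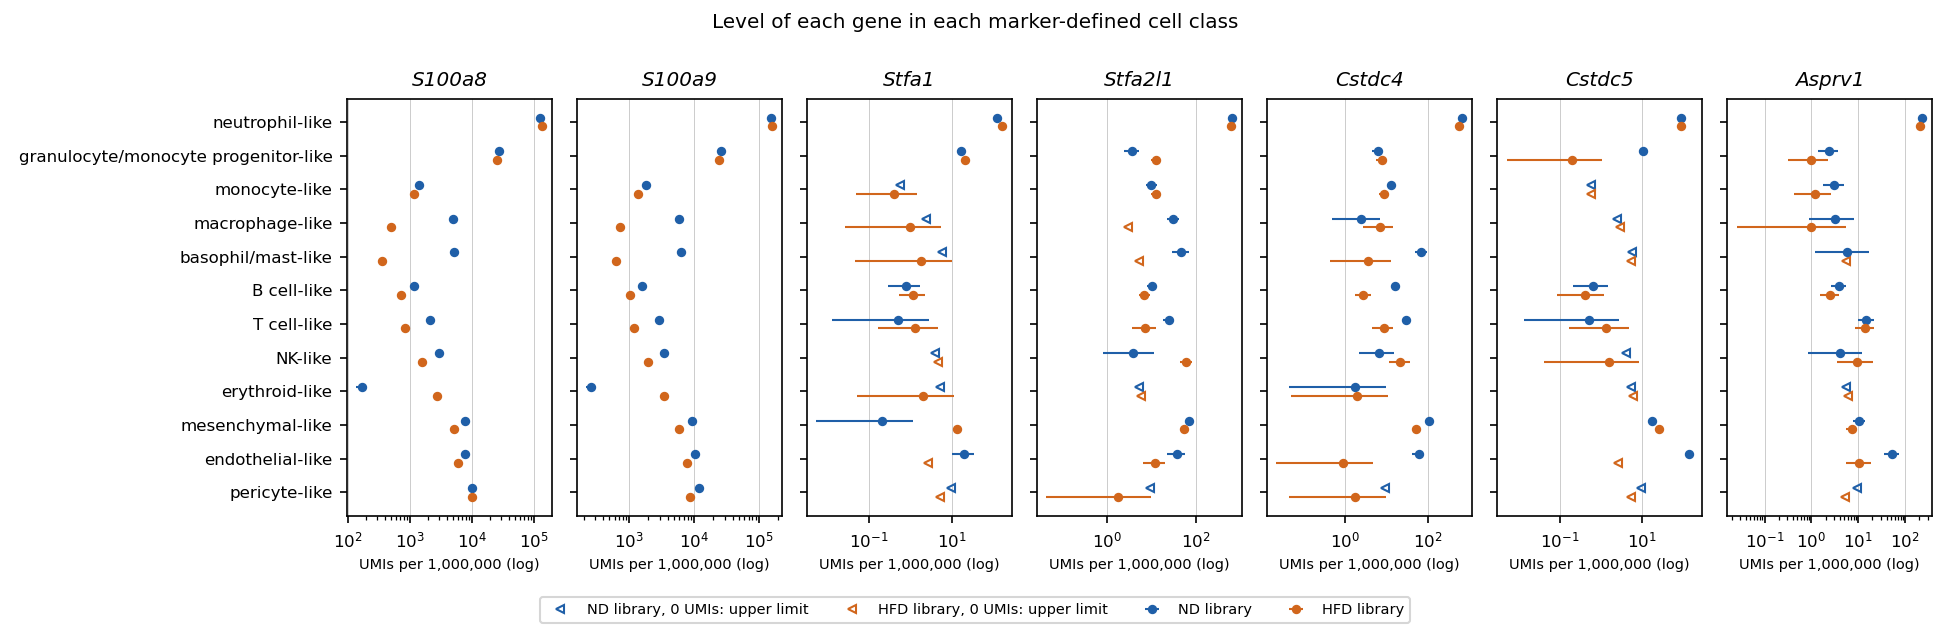
UMIs per 1000000 of each gene (log axis, scale differs between panels) in 12 marker-defined cell classes of the ND (blue) and HFD (orange) libraries, with exact 95% Poisson intervals; open triangles mark classes with 0 UMIs and show the upper limit of 3 counts. The neutrophil-like points are the rightmost of each panel except for Cstdc5, where the ND endothelial-like point at 143 lies further right.

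Granulocyte/monocyte progenitor-like cells, which carry Elane and Mpo RNA, came second for S100a8 with 27381 UMIs per 1000000 in ND and 25506 in HFD. Their cells were divided. The median cell had 420 (ND) and 632 (HFD) S100a8 UMIs per 1000000, while the 90th percentile lay at 103107 and 96159, against 102524 and 115974 in the median neutrophil-like cell. The stefins were lower there than in neutrophil-like cells. Stfa2l1 had 3.72 and 12.9 UMIs per 1000000, Cstdc4 6.34 and 7.89, and Stfa1 16.97 and 20.98. Cstdc5 stood at 11.03 in ND and 0.192 in HFD, from 80 UMIs and 1 UMI. Monocyte-like cells, which in other settings also make calprotectin, stood at 1402 and 1170 for S100a8.

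S100a8 UMIs were found in most cells of every class, including those that should lack the gene. In the B cell-like class 81.1% of ND cells (95% interval 79.0% to 83.0%) and 89.97% of HFD cells (88.3% to 91.5%) had at least 1, at a median depth of 3885 and 3822 UMIs, against 100% of neutrophil-like cells at 4117.5 and 4292.5. After thinning every cell to 1000 UMIs these shares were 35.6%, 45.9%, 99.9% and 99.9%. The median B cell-like cell held 366 and 554 S100a8 UMIs per 1000000, and the medians of the other classes outside the neutrophil-like and progenitor-like cells lay between 167 and 592. For S100a8 a share of cells with a UMI therefore did not set neutrophil-like cells apart at full depth, and the levels did.

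The stefins and Asprv1 were found in few B cell-like cells. Stfa2l1 was found in 38.1% of ND and 34.3% of HFD neutrophil-like cells, but in 1.71% and 1.76% of B cell-like cells. Cstdc4 was found in 28.5% and 25.3% against 1.45% and 1.29%, and Asprv1 in 29.8% and 26.2% against 1.19% and 0.475%. Stfa1 and Cstdc5 were rarer, in 6.97% and 7.41% and in 4.13% and 4.97% of neutrophil-like cells, with at most 0.610% in B cell-like cells.

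In some classes outside the neutrophil-like one the mean level of S100a8 rested on few cells, though not in all. The mean of HFD B cell-like cells, 728 UMIs per 1000000, was not far above their median cell. In ND mesenchymal-like cells (7703 UMIs per 1000000) the 10% of cells with the most held 97.0% of the S100a8 UMIs and suspected doublets held 76.6%. In ND pericyte-like cells suspected doublets held 98.2%. The ratio of S100a8 to S100a9 UMIs was 0.740 and 0.708 in B cell-like cells, close to the 0.729 of mature neutrophil-like cells in either library and below the 0.958 and 1.00 of early/cycling ones. T cell-like cells, at 0.729 and 0.697, and endothelial-like cells, at 0.756 and 0.768, were also close. Some other classes differed more, with 0.828 and 0.856 in mesenchymal-like, 0.850 and 1.18 in pericyte-like and 0.800 and 0.561 in basophil/mast-like cells. Immature neutrophil-like cells had 0.818 and 0.867, and all neutrophil-like cells 0.811 and 0.850. Whether these UMIs came from free RNA, from doublets or from the cells themselves was not tested.

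Neutrophil-like cells were then split into 9 subclusters, again without the 7 genes, and assigned to 3 stages by markers. The early/cycling stage held 107 ND and 115 HFD cells, the immature (specific granule) stage 490 and 748, and the mature stage 1799 and 1553. The mature stage thus made up 75.1% (73.3% to 76.8%) of neutrophil-like cells in ND and 64.3% (62.3% to 66.2%) in HFD. This order did not hold under every clustering. With scanpy and Leiden clustering, which gave no early/cycling stage, mature cells were 60.02% of ND and 61.7% of HFD neutrophil-like cells. The immature stage also held cells with cycling genes. Its subcluster of 79 ND and 132 HFD cells, led by Olfm4 and Fcnb, had Hist1h2ap, Ube2c and Rrm2 among its top genes. The marker score of that subcluster was 1.42 for the early/cycling and 1.78 for the immature stage. Median depth fell from 29261 and 25964 UMIs per cell in the early/cycling stage to 10429 and 10305 in the immature and 3455 and 3353 in the mature stage, so each level below is given as a share of UMIs and, where it matters, per cell.

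The alarmins and the stefins went opposite ways with maturation. S100a8 was already at 150194 (ND) and 155471 (HFD) UMIs per 1000000 in the early/cycling stage, 152765 and 162668 in the immature stage, and fell to 97848 and 95631 in the mature stage. S100a9 peaked in the immature stage, at 186676 and 187690, and stood at 134201 and 131095 in the mature stage. The fall from immature to mature cells was 0.64 and 0.77 on the log2 scale for S100a8 and 0.48 and 0.52 for S100a9, with the same order of stages in both libraries. Per cell, S100a8 fell more steeply, from 4347 and 3692 UMIs through 1722 and 1832 to 392 and 349.

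All 4 stefins and Asprv1 were highest in the mature stage in both libraries, so that 5 of the 7 genes were, against 32.6% of 10653 genes with at least 20 UMIs. Stfa2l1 had 14.9 and 16.1 UMIs per 1000000 in the early/cycling stage, 269 and 297 in the immature stage, and 1223 and 1377 in the mature stage. Cstdc4 went from 5.49 and 3.30 through 110 and 215 to 1432 and 1429. Asprv1, which lies outside the stefin cluster, followed them from 4.84 and 5.13 through 54.9 and 67.9 to 458 and 524.

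From the immature to the mature stage, Cstdc4 was 13.04-fold higher in ND and 6.66-fold in HFD, Asprv1 8.33-fold and 7.71-fold, and Stfa2l1 4.54-fold and 4.63-fold. Cstdc5 was 5.62-fold and 2.60-fold higher and Stfa1 3.20-fold and 3.85-fold. These 5 genes passed a 1.5-fold difference upward in both libraries, as did 31.5% (ND) and 33.0% (HFD) of all genes tested. S100a8 passed it downward in both, as did 21.5% and 24.5% of genes.

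Counted per cell, only 3 of these genes were highest in the mature stage in both libraries. Stfa2l1 went from 0.430 and 0.383 UMIs per cell in the early/cycling stage to 4.90 and 5.03 in the mature stage, Cstdc4 from 0.159 and 0.0783 to 5.74 and 5.22, and Asprv1 from 0.140 and 0.122 to 1.84 and 1.91. Stfa1 had 1.38 and 1.30 UMIs per early/cycling cell, 0.747 and 0.987 per immature cell and 0.850 and 1.23 per mature cell. It was thus higher per mature than per immature cell in both libraries but highest in the early/cycling stage, where 1 cell held 85 of 148 UMIs in ND and 109 of 149 in HFD. Cstdc5 had 0.355, 0.343 and 0.687 UMIs per early/cycling, immature and mature cell in ND, and 0.104, 0.727 and 0.613 in HFD, so that it was highest in the mature stage in ND and in the immature stage in HFD.

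Cells were also ordered without clusters, by an index that divides the UMIs of the mature-stage markers by those of the mature and specific granule markers together, and cut into 10 ranges of equal size. Stfa2l1 was nearly absent from the first range (8.72 UMIs per 1000000 in ND and 6.93 in HFD), reached 568 and 817 in the third and 1462 and 1569 in the fifth, and stayed between 1196 and 1500 from the sixth to the tenth. Cstdc4 peaked at 2186 in the fifth range of ND and 1871 in the sixth range of HFD and ended at 951 and 1422. Asprv1 rose later, to its highest level of 703 in the ninth range of ND and 670 in the eighth of HFD.

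The fall of the alarmins began while Stfa2l1 and Cstdc4 were still rising and went on after Stfa2l1 had levelled off. S100a8 was highest in the first range, at 156196 and 163512 UMIs per 1000000. It stood at 113085 and 114938 in the fifth range and 50207 and 59648 in the tenth. S100a9 reached its highest level in the third range, at 193413 and 196308, and dropped to 68561 and 80077 in the tenth. Cstdc5 jumped between neighbouring ranges, with 375 in the fourth range of HFD against 120 in ND and 341 in the fifth range of ND against 147 in HFD. Its peak in HFD lay in a range whose median index was 0.253, so that the highest range of 4 genes (Stfa1, Stfa2l1, Cstdc4 and Asprv1) had a median index above 0.5 in both libraries.

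**Figure D2:**
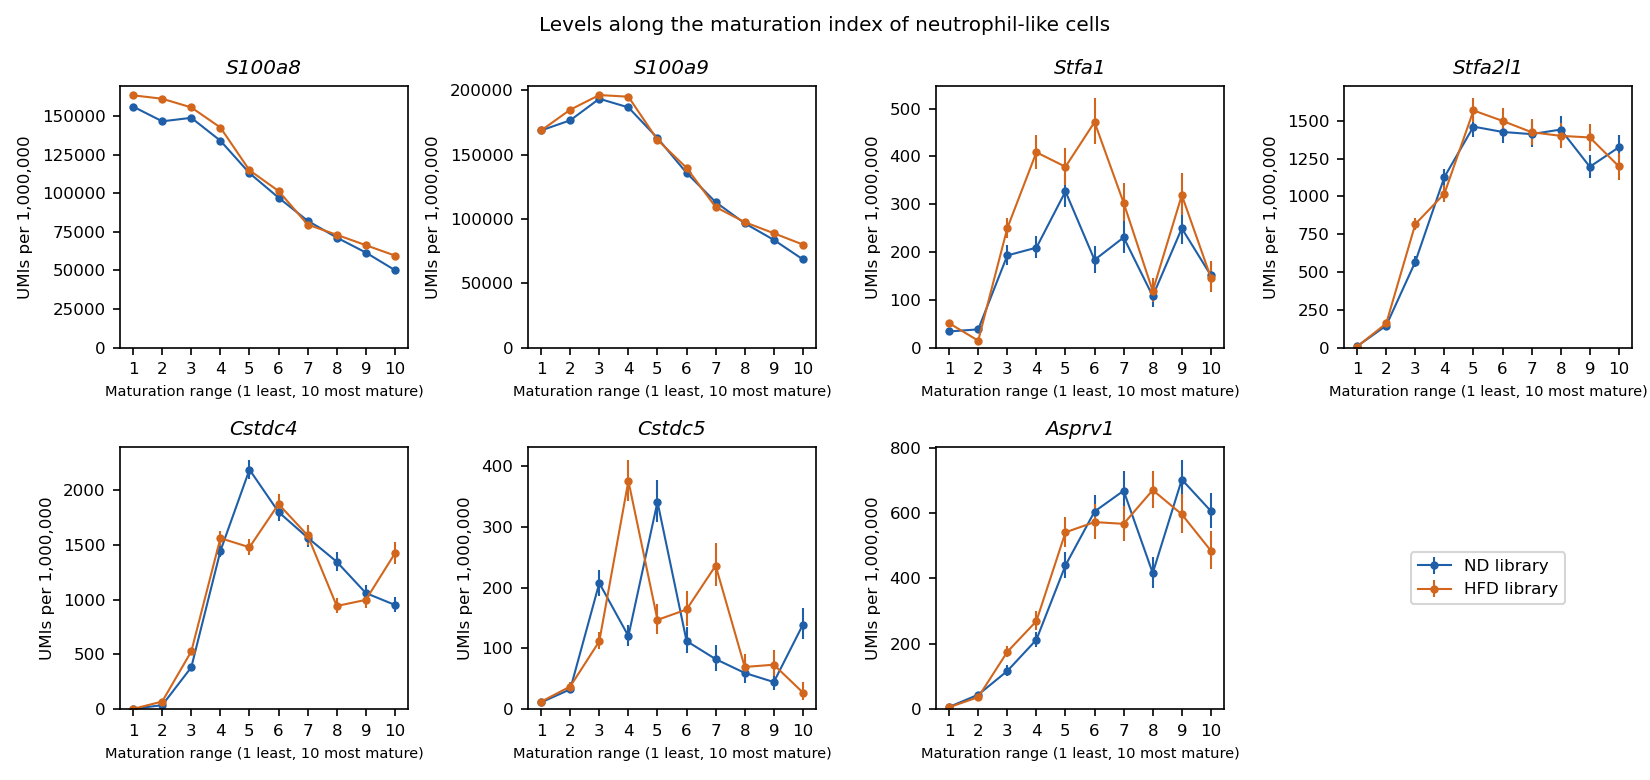
UMIs per 1000000 (vertical axis, from 0, scale differs between panels) in 10 ranges of equal cell number along the maturation index of neutrophil-like cells, for the ND (blue) and HFD (orange) libraries with exact 95% Poisson intervals. S100a8 and S100a9 decline from the fourth range on, while Stfa2l1, Cstdc4 and Asprv1 climb from near 0 in the first range to a plateau or a peak from the fifth on.

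Across these 10 ranges in 2 libraries (20 points that share cells' depth and the markers of the index), S100a8 and S100a9 had a Pearson correlation of 0.976, Stfa2l1 and Cstdc4 of 0.977, and Stfa2l1 and Asprv1 of 0.958, while S100a8 and Asprv1 had one of -0.755. Among 6156 genes with at least 200 UMIs, the patterns most like that of S100a8 were those of Wfdc21 (0.989), Adpgk (0.984) and Lcn2 (0.981), the last of which is a marker used in the index. Those most like Stfa2l1 were Hacd4 (0.996), Grina (0.994) and Dhrs9 (0.993). Those most like Asprv1 were the index marker Clec4d (0.993), Fosl2 (0.992) and Themis2 (0.992).

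Among the 4 mature subclusters, the one led by Wfdc17, Ccl4 and Ccrl2 (828 ND and 787 HFD cells) had the lowest S100a8, at 61500 and 64012 UMIs per 1000000. The subcluster led by Ccl6 and Jaml (380 cells in each library) had 121102 and 126938, and that led by Cxcl2 and Il1b 103343 and 111318. Stfa2l1 varied far less between these 3, from 1232 to 1586. This did not hold for every stefin. Cstdc4 stood at 974 and 930 in the first, 2133 and 1830 in the second and 2155 and 1856 in the third, and Stfa1 ranged from 129 to 524. The subcluster led by Atf3, Fos and Egr1 (317 ND and 56 HFD cells) had less Stfa2l1, at 751 and 1025. Among the immature subclusters, Stfa2l1 was highest in the one led by Retnlg and Mmp8, at 538 and 774, and lowest in the one led by Fcnb and Orm1, at 62.4 and 10.4.

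The alarmins and the other genes also differed in how they were spread over cells of 1 stage. Every mature cell had S100a8 and S100a9 UMIs. Stfa2l1 was found in 44.5% of ND and 43.4% of HFD mature cells, Cstdc4 in 35.02% and 33.4%, and Asprv1 in 34.2% and 32.1%. Stfa1 was found in 6.89% and 7.98%, and Cstdc5 in 4.67% and 4.83%. In cells thinned to 1000 UMIs these shares were 36.6% and 34.7% for Stfa2l1, 28.9% and 26.7% for Cstdc4, 23.1% and 22.0% for Asprv1, 4.95% and 5.80% for Stfa1, and 4.01% and 3.22% for Cstdc5.

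The cells that had a rare stefin had much of it. In mature cells with Stfa1, the median was 5.5 UMIs in ND and 6.0 in HFD, and the highest cell held 82 and 101. Only 18 and 17 cells held 50% of all Stfa1 UMIs of the stage, and 9 and 8 cells that share of Cstdc5. For Cstdc5 in ND, 1 cell held 208 of 1236 UMIs. For Stfa2l1 that share lay in 153 and 122 cells, and for S100a8 in 348 and 359.

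**Figure D3:**
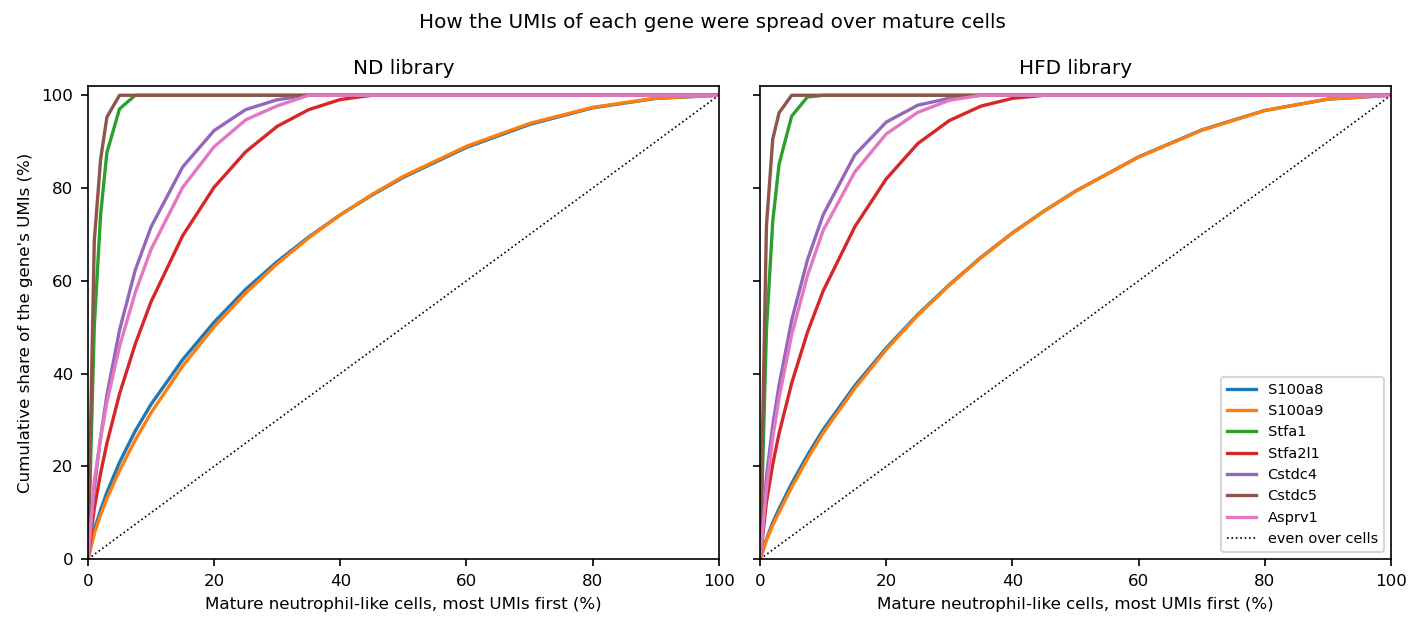
Cumulative share of the UMIs of each gene (vertical axis, %) over mature neutrophil-like cells ordered from most to fewest UMIs (horizontal axis, %), for the ND (left) and HFD (right) libraries; the dotted line marks an even spread. The curves of Cstdc5 and Stfa1 reach 100% within the first 10% of cells, those of Cstdc4, Asprv1 and Stfa2l1 within the first 45%, and those of S100a8 and S100a9 run closest to the even line.

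Single mature cells differed in how many of the stefins they carried. Of the mature ND cells, 42.7% had none of the 4 stefins, 28.5% had 1, 24.3% had 2, 3.84% had 3 and 0.611% had all 4. In HFD these shares were 43.4%, 29.3%, 22.3%, 4.25% and 0.708%. Of 329 ND cells with at least 10 Stfa2l1 UMIs, 138 (41.9%) also had at least 10 of Cstdc4, which were 45.2% of the 305 cells with that much Cstdc4, and in HFD 100 cells were shared, 34.2% of 292 and 42.2% of 237. Over all mature cells, 17.0% in ND and 15.3% in HFD had that much Cstdc4, and 18.3% and 18.8% that much Stfa2l1. Stfa1 and Cstdc5, whose sequences are nearly the same, overlapped in few cells, though in a larger share than over all mature cells. In ND 6 cells had at least 10 UMIs of both, 12.5% of the 48 cells with that much Stfa1 and 18.8% of the 32 with that much Cstdc5, while 1.78% of all mature cells had that much Cstdc5 and 2.67% that much Stfa1. In HFD 3 cells did, 6.25% of 48 and 12.0% of 25, against 1.61% and 3.09% of all mature cells. All these counts used cells at full depth, where deeper cells more readily reach a cut for several genes at once, and this was not corrected for. Over thinned mature cells the Pearson correlation of log2 (UMIs + 1) was 0.90 and 0.92 between S100a8 and S100a9, 0.37 and 0.33 between Stfa2l1 and Cstdc4, 0.15 and 0.11 between Stfa1 and Cstdc5, and 0.01 and 0.03 between Stfa2l1 and Asprv1, and these values describe cells of 1 library each that share its depth.

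Between the diets, the levels of the 7 genes in neutrophil-like cells as a whole were close. None passed a 1.5-fold difference between the HFD and ND libraries, while 12.3% of 10653 genes did, and 4.91% of genes with at least 100 UMIs, which all 7 genes had. On the log2 scale, HFD over ND came to 0.13 for S100a8, 0.06 for S100a9, -0.09 for Stfa2l1, -0.23 for Cstdc4, -0.11 for Asprv1 and -0.02 (-0.13 to 0.08) for Cstdc5. It was 0.37 (0.28 to 0.45) for Stfa1. These ratios mix levels with the shares of the stages, which differed between the libraries as staged here. With the 3 stages weighted equally they were 0.05 for S100a8, -0.01 for S100a9, 0.17 for Stfa2l1, 0.09 for Cstdc4, 0.15 for Cstdc5, 0.21 for Asprv1 and 0.56 for Stfa1, so that the sign changed for S100a9, Stfa2l1, Cstdc4, Cstdc5 and Asprv1.

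In the mature stage, 1 of the 7 genes passed 1.5-fold, against 16.2% of 8406 genes in either direction and 5.26% upward. This was Stfa1, with 212 UMIs per 1000000 in ND and 337 in HFD and a log2 ratio of 0.67 (0.57 to 0.77). The share of cells with Stfa1 hardly differed, at 6.89% (5.76% to 8.16%) and 7.98% (6.68% to 9.45%), and 48 cells in each library had at least 10 UMIs. Without the 56 HFD and 317 ND cells of the subcluster led by Fos and Egr1 the ratio was 0.68, as it was without all clusters mostly of 1 library, but it fell short of 1.5-fold under 4 of 11 alternatives. These gave 0.44 with stages from another clustering, 0.53 with cells of at least 200 genes, 0.57 after thinning to 1000 UMIs and 0.53 as UMIs per cell. The other 6 genes differed by at most 0.19, with log2 ratios of -0.03 for S100a8 and S100a9, 0.17 for Stfa2l1, -0.00 for Cstdc4, -0.03 for Cstdc5 and 0.19 for Asprv1.

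In the immature stage 2 of the 7 genes passed 1.5-fold upward and 0 downward. Of 8547 genes, 4.5% passed it upward. Cstdc4 stood at 110 UMIs per 1000000 in ND and 215 in HFD, with a log2 ratio of 0.97 (0.83 to 1.10), and Cstdc5 at 30.4 and 64.6, with 1.08 (0.83 to 1.34). Few cells carried them. Cstdc4 was found in 46 of 490 ND and 87 of 748 HFD cells, and Cstdc5 in 11 and 35, and 50% of the Cstdc5 UMIs lay in 2 and 6 cells. Both ratios turned negative when stages came from another clustering (Cstdc4 -0.41 and Cstdc5 -0.12), in which the Jun, Rhob and Fos subcluster of 379 ND and 91 HFD cells was counted as immature, and that of Cstdc5 was -0.52 at a clustering resolution of 1. The other 5 genes lay between 0.01 and 0.40 in the immature stage, but the sign did not hold for most of them either. Under single alternatives Stfa1 reached -0.36, Stfa2l1 -0.64 and Asprv1 -0.57, and S100a8 alone was positive under all 11. The immature subclusters also differed in direction for Cstdc4. It was higher in HFD in those led by Retnlg and Mmp8 (258 in ND and 501 in HFD) and by Olfm4 (111 and 288). In those led by Orm1 and Zmpste24 (39.4 and 33.5) and by Fcnb and Orm1 (18.9 and 7.27) it was lower. In ranges of matched maturation Cstdc4 was at 35.6 and 69.2 UMIs per 1000000 in the second range, 382 and 527 in the third and 1443 and 1560 in the fourth. The order turned in the fifth range, where ND stood at 2186, above the highest HFD level of any range, 1871.

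In the early/cycling stage the log2 ratio was -1.44 (-2.55 to -0.51) for Cstdc5 and -0.70 (-2.08 to 0.51) for Cstdc4, from 38 and 12 and from 17 and 9 UMIs, and 8.88% of 7856 genes passed 1.5-fold in that direction. The share of cells with Cstdc5 went the other way, at 3.74% in ND and 8.70% in HFD, and a single ND cell held most of its ND UMIs. The other 5 genes lay between -0.01 and 0.19.

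**Figure D4:**
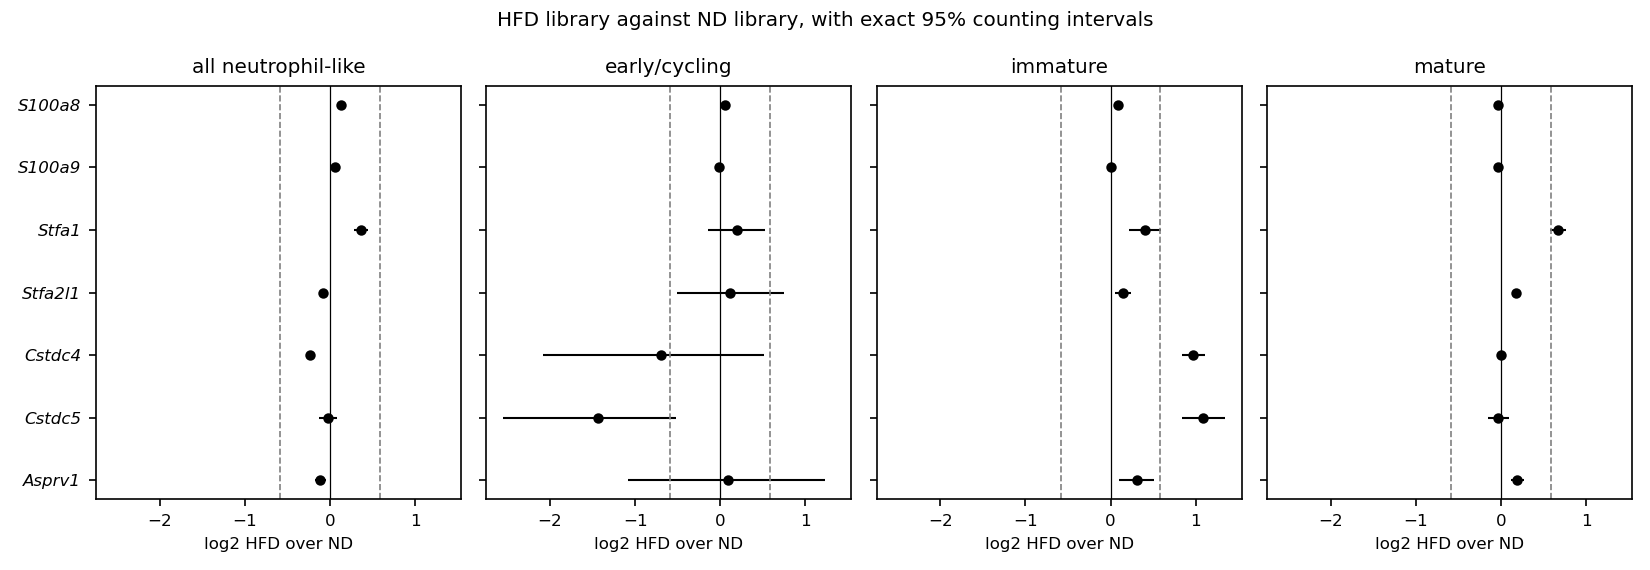
Log2 ratio of the HFD over the ND library (horizontal axis) for each gene in all neutrophil-like cells and in each stage, with exact 95% counting intervals; dashed lines mark 1.5-fold. Stfa1 in mature cells (0.67) and Cstdc4 and Cstdc5 in immature cells (0.97 and 1.08) lie beyond the upper line, Cstdc5 and Cstdc4 in early/cycling cells (-1.44 and -0.70) beyond the lower one.

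Genes outside the 7 also differed between the libraries. Of 10 granulocyte transcription factors, 7 were past 1.5-fold lower in mature HFD cells, among them Jun (-2.32), Cebpe (-1.39) and Fos (-1.31), against 10.9% of all genes, and Cebpb, which drives emergency granulopoiesis, stood at 0.36. Without the subcluster led by Fos and Egr1, Jun stood at -0.62, Cebpe at -0.01 and Fos at 0.55. Fos and Jun are also induced when tissue is dissociated, and their part in the values of Stfa1 was not tested.

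In other classes the direction varied. Past 1.5-fold higher in HFD were S100a8 and S100a9 in erythroid-like cells (4.02 and 3.75, from 33 ND and 27 HFD cells), Stfa2l1 in NK-like cells (3.72, 2.27 to 6.26, from 3 and 39 UMIs), Stfa2l1 in progenitor-like cells (1.78) and Stfa1 in mesenchymal-like cells (5.48, 3.55 to 11.4, from 1 and 98 UMIs, of which 49 lay in 1 cell). Past it downward were S100a8 and S100a9 in basophil/mast-like (-3.86 and -3.35), macrophage-like (-3.32 and -3.01), NK-like (-0.94 and -0.81) and mesenchymal-like cells (-0.59 and -0.64). The 5th percentile of all genes tested was -0.87, -0.73, -0.74 and -0.62 in these classes. After thinning, the share of cells with S100a8 was higher in HFD in all of them, with overlapping intervals. It was 23.4% in ND and 32.7% in HFD for basophil/mast-like cells and 20% and 27.5% for macrophage-like cells. For NK-like cells it was 35.6% and 47.2%, and for mesenchymal-like cells 32.9% and 39.5%. For S100a9 this share was higher in HFD in macrophage-like and NK-like cells only. Stfa2l1, Cstdc4, Cstdc5 and Asprv1 passed 1.5-fold downward in endothelial-like cells, where the 5th percentile was -0.82. These 4 ratios came from 22, 36, 85 and 31 ND UMIs and 14, 1, 0 and 12 HFD UMIs. Each gene was found in at most 3.39% of the 118 ND cells. In B cell-like cells 4 of the 5 genes with at least 20 UMIs passed 1.5-fold downward (6.16% of all genes did), with -0.67 for S100a8, and in T cell-like cells 4 of 5 did (8.22%), with -1.35. The median cell did not follow. It held 366 S100a8 UMIs per 1000000 in ND and 554 in HFD for B cell-like cells, and 271 and 388 for T cell-like cells, while suspected doublets held 80.6% of the S100a8 UMIs of T cell-like cells in ND and 54.5% in HFD.

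Related genes were compared as shares of UMIs, not per cell. Median depth was lower in mature than in immature cells, so a higher share need not mean more UMIs per cell. The other members of the stefin and cystatin list also rose with maturation per 1000000 UMIs. All 4 that could be compared passed 1.5-fold from the immature to the mature stage in ND, and 3 did in HFD, against 31.5% and 33.0% of all genes tested. Cstb, the widely expressed stefin B, stood at 104 and 114 UMIs per 1000000 in immature and 276 and 468 in mature cells, and Cst3, the secreted cystatin C, at 402 and 405 and at 870.5 and 939.8. Stfa2 went from 11.6 and 15.6 to 58.2 and 44.99. Stfa3 went from 41.3 and 21.0 to 63.4 and 25.1, the latter short of 1.5-fold. Of 3 further stefin A genes in the cluster, looked at after the values were seen, Csta3 rose from 1.27 and 3.21 to 24.5 and 33.2, Csta2 stood at 6.52 and 9.17 in mature cells, and Csta1 had 0 UMIs in neutrophil-like cells, which allows up to 0.189 and 0.178 UMIs per 1000000.

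Between diets these relatives went in different directions in mature cells, where Stfa3 had a log2 ratio of -1.34 (-1.62 to -1.06) and Cstb of 0.76 (0.68 to 0.85), and without the subcluster led by Fos and Egr1 of -1.06 and 0.51, the latter short of 1.5-fold. Of 4 genes of the list with enough UMIs these 2 passed 1.5-fold, against 16.2% of all genes in either direction. Stfa2 stood at -0.37 and Cst3 at 0.11.

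The targets of stefins, the cysteine cathepsins, mostly rose with them per 1000000 UMIs. Of 7 cathepsin genes that could be compared, 5 in ND and 6 in HFD rose past 1.5-fold from the immature to the mature stage and 1 fell, Ctsh, from 141 and 137 to 93.5 and 81.7 UMIs per 1000000. Of all genes, 31.5% and 33.0% rose past it and 21.5% and 24.5% fell. Ctsl stood at 262 in ND and 142 in HFD in mature cells, a log2 ratio of -0.88 (-1.004 to -0.76), and Ctsb at 131 and 119. Between diets, 1 of the 7 cathepsin genes was past 1.5-fold lower in mature HFD cells and 1 was past it higher. Of all genes, 10.9% were lower and 5.26% higher.

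RNA of receptors and partners of S100a8 and S100a9 was found in the neutrophil-like class, and presence in the same single cells was not tested. From the immature to the mature stage 5 of 7 rose past 1.5-fold in each library, against 31.5% (ND) and 33.0% (HFD) of all genes, and 0 fell past it, against 21.5% and 24.5%. Emb, a surface glycoprotein that binds S100A8/A9, went from 108 and 121 to 424 and 489 UMIs per 1000000. Tlr4, the signalling receptor, went from 6.70 and 6.05 to 25.7 and 21.7. Of the other 15 genes named S100, 8 in ND and 6 in HFD could be compared, and in each library 2 rose and 2 fell past 1.5-fold. S100a6 and S100a11 rose, from 4387 and 4234 to 10072 and 9853 and from 2889 and 3233 to 5434 and 6296, and S100a13 fell from 159 and 146 to 79.2 and 62.6 and S100a1 from 14.1 and 19.1 to 3.88 and 3.88. S100a8 and S100a9 thus shared neither the direction of S100a6 and S100a11 nor that of the stefins per 1000000 UMIs.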

How the data were processed

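The authors dissociated periosteal cells with collagenase and dispase, made 10x Chromium 3′ libraries and deposited raw UMI counts per gene and barcode, made with Cell Ranger 6.0.1; the submitters' processing notes name mm10. The deposited counts hold 6314 ND and 6636 HFD barcodes with 48558889 and 49940976 UMIs, 15 barcodes occurring in both.

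The members and gene lists were chosen with earlier results of these data known. Cells were filtered as stated, normalized with sctransform 0.4.2 and clustered in Seurat 5.3.0 (R 4.3.3; 30 components, resolution 0.5) without the 7 genes and the other Stfa and Cstdc genes. Csta genes stayed in. Clusters were named by markers, with at least 3 detected, and the limits that left clusters unnamed (322 ND and 297 HFD cells) were set after the clusters were seen. Neutrophil-like cells were reclustered with 20 components and staged by markers. Automatic Scrublet calls in scanpy 1.11.5 marked 10 and 11 cells and were not used; the 5% of cells with the highest scores (295 and 287 kept cells) were called suspected doublets and kept in.

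Levels are summed UMIs per 1000000 UMIs of a class or stage. Log2 ratios between libraries had 0.5 added to each count and were compared for genes with at least 20 UMIs against a 1.5-fold difference. Intervals are exact 95% Poisson or binomial intervals, and a count of 0 allows up to 3 counts. Only the log2 ratio and its interval were tested on simulated data, which were Poisson counts without further spread between cells. The text names the 7 genes, list genes with at least 100 UMIs in neutrophil-like cells or the highest level of their list, and the 3 genes most like S100a8, Stfa2l1 and Asprv1. The alternatives tried were other cell filters, doublets left out, thinning to 1000 UMIs, other clusterings, other totals, equal stage weights, clusters mostly of 1 library left out and a minimum of 100 UMIs. Annotation and coding sequences came from GENCODE M21 (GRCm38), matched by Ensembl identifier.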

Additional observations from a re-analysis of the deposited data

Results flagged for a closer look

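The log2 ratio of HFD over ND for Cstdc5 pointed opposite ways in stages of the neutrophil-like cells, at 1.08 in the immature stage (168 ND and 544 HFD UMIs) and -1.44 in the early/cycling stage (38 and 12 UMIs). With 1 library per diet the difference between these ratios was not tested. In the early/cycling stage 1 of the 107 ND cells held 25 of the 38 UMIs.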

How the results depend on the processing

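No paired analysis was possible because the deposited matrices carry no mouse or replicate number, and for the same reason no replicate could be left out. No gene passed 1.5-fold between diets in neutrophil-like cells under any of the 12 alternatives that gave a value. The number of genes highest in the mature stage in both libraries was 5 of 7 under the clustering, filter and scaling alternatives, 4 along the 10 maturation ranges and 3 as UMIs per cell, the last an alternative chosen after seeing the data, as was leaving out the 1% of cells highest in a gene. Between 6 and 7 genes were highest in the neutrophil-like class under each of the 11 alternatives. Of 392 log2 ratios under alternatives, 40 had another sign than as reported, namely 10 of 84 between diets in all neutrophil-like cells, 10 of 77 in immature cells, 19 of 77 in mature cells, and from immature to mature cells 0 of 77 in ND and 1 of 77 in HFD. Among ratios past 1.5-fold these were Cstdc4 in immature cells between diets (-0.41 with scanpy and Leiden clustering), Cstdc5 in immature cells between diets (-0.52 at resolution 1 and -0.12 with scanpy and Leiden clustering) and Cstdc5 from immature to mature HFD cells (-0.25 as UMIs per cell). Sizes held less well than signs. Of 393 values under alternatives, 172 lay within the counting interval of the reported value, 217 lay outside it and 4 were the reversals just named. On the log2 scale, the ND ratio from immature to mature cells ran from 1.98 to 5.45 for Cstdc4, against 3.71 as reported. For Stfa1 it ran from 0.19 to 2.55, against 1.68. The mature ratio of Stfa1 between diets ranged from 0.44 to 0.69 and passed 1.5-fold under 7 of 11 alternatives. Without the 1% of cells highest in it, the immature ratio of Cstdc5 was 3.10. Only 2.24% of immature ND and 4.68% of immature HFD cells had Cstdc5 UMIs. Leaving out 1% thus took away a large part of them, most of all in ND, and this ratio rests on the few left. With at least 100 UMIs per gene the share of all genes past 1.5-fold between diets was 4.91%, against 12.3% with at least 20. Depth limits the rare stefins most, since Stfa1 and Cstdc5 UMIs lay in few cells. The counting intervals of levels and ratios hold no part of the differences between mice or of the uneven spread over cells.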
